A study of Mus musculus with 6 samples.

Results

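Promoters of 3 extracellular matrix genes (Fn1, Col4a1, Lama1) and the matrix receptor gene Cd44 were examined in an ATAC-seq table of mouse limb explants. The table holds 23500 bins, 100 for each promoter, of which the 4 genes make up 400. They were taken from the table by gene symbol, and all 4 were found, each with signal above 0 in every library. ATAC-seq cuts DNA with the Tn5 transposase wherever chromatin is open, so a higher signal means a more accessible site. The explants came from wild-type mice of the outbred CD-1 strain, with no allele or drug treatment named in the labels, and were collected at 1 day post amputation (1 dpa). In one group the limbs were kept at an air-liquid interface (ALI), with the tissue at the border between medium and air. In the other group they were kept in 96-well plates. Each group had 3 libraries, and 4 limbs were collected from each culture. The age of the limbs was not used here. The labels do not say that the libraries came from separate animals, so the p-values below rest only on variation among these libraries, which may be technical. For the main fits between cultures, that variation was taken from a trend over all promoters, not from each gene's own spread. By its title, the series belongs to a study of how species differ in sensing oxygen when a limb begins to regenerate.

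The extracellular matrix is the network of secreted proteins and sugars that surrounds cells. Fn1 encodes fibronectin, a fibril-forming glycoprotein that cells assemble and grip through integrins and that is laid down early in wounds. Col4a1 encodes a chain of collagen IV, and Lama1 encodes a chain of the early laminins, and both proteins build the basement membrane, the thin sheet beneath epithelia such as the limb ectoderm. Cd44 encodes the main cell-surface receptor for hyaluronan, a large sugar polymer abundant in limb bud matrix. In a bulk sample of a whole explant, a promoter open in fewer cells and a promoter less open in each cell cannot be told apart.

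The table gives the coverage of each promoter in 100 bins of 20 bp, reaching 1000 bp to either side of the start site of transcription. The table uses build GRCm39, in which the Fn1 start lies on chromosome 1 at position 71692360 on the minus strand. The Cd44 start lies on chromosome 2 at position 102732011 on the minus strand. The Col4a1 start lies on chromosome 8 at position 11362827 on the minus strand, and the Lama1 start lies on chromosome 17 at position 68004255 on the plus strand. Each window covers the upstream promoter and the beginning of the transcript, and negative positions below lie upstream of the start. In the RefSeq gene table, Col4a2, which encodes the partner chain of collagen IV, overlaps the Col4a1 start on the opposite strand. Signal at and upstream of the Col4a1 start therefore lies inside Col4a2 and cannot be assigned to one of the genes. How far Col4a2 reaches past that start was not measured, so signal just downstream of it, with the main Col4a1 peak, may be shared too. For Fn1, Lama1 and Cd44 the nearest upstream neighbours did not overlap the start.

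RefSeq promoter sequences of build GRCm38.p6, which is not the build of the signal, were matched by symbol for 2 of the 4 genes, Col4a1 and Cd44. They are shown because the promoters differ in base composition and in the short motifs they hold. The capitals mark a hypoxia response core (ACGTG) in Cd44, at positions −29 to −25, and a CCAAT box read on the opposite strand in Col4a1, at −145 to −141. The Cd44 stretch covers −250 to −1 at chr2:102901666-102901915, minus strand. The Col4a1 stretch covers −157 to −128 at chr8:11312954-11312983, minus strand, and both are written 5′ to 3′ on the strand of the gene.
Cd44: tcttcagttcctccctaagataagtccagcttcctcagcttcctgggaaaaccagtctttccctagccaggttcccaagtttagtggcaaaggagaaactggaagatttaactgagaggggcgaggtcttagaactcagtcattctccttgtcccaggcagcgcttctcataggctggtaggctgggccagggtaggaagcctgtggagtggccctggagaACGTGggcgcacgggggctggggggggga
Col4a1: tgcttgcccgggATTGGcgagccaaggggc

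In the 250 bases before its RefSeq start, Col4a1 had a GC content of 74.4% and 31 CpG dinucleotides, which is 0.896 of the number its base content predicts. Cd44 had a GC content of 56.4% and 5 CpG dinucleotides, or 0.257 of the number predicted. The medians over 32851 RefSeq promoters were 52.4% and 0.373, so that Col4a1 was a CpG-rich promoter and Cd44 was below the median in CpG content. Both strands were searched for the TATA box (TATAAA), the CCAAT box, the GC box (GGGCGG), the AP-1 site (TGANTCA) and the hypoxia response core, which is either ACGTG or GCGTG. Cd44 held 1 match, the hypoxia response core in capitals. Col4a1 held 1 CCAAT box and 1 hypoxia response core. Of all promoters, 38.6% held a hypoxia response core and 33.8% a CCAAT box, so these matches are common. Whether these RefSeq starts are the starts used in the signal table was not settled: the Cd44 start had the same offset between the builds, within 2 bases, as 2 of 21 other genes of the table on its chromosome, and the Col4a1 start as 0 of 2.

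The signal is a depth-normalised coverage. The value of 1 read per base, read from the steps between low values, ran from 0.0871 to 0.146 across the 6 libraries, and the mean coverage of a bin was 72.5 to 213.6 reads per base. Mean signal per promoter differed between libraries, with ALI replicate 2 and 96-well replicate 3 the highest, at library shifts of 0.38 and 0.20 on the log2 scale against −0.23 to −0.02 in the other libraries. Changes are therefore given on the deposited scale and again after each library was centred on its median log2 deviation (the centred scale). Of the marker lists, the table held 7 of 13 limb ectoderm and ridge genes and 2 of 14 limb mesenchyme genes, and none of the lists for cartilage, muscle, endothelium, blood or nerve, so the makeup of the explants could not be checked further.

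Fn1 had the most accessible promoter of the 4 genes. Its mean signal over the window was 33.5, 57.5 and 33.7 in the ALI libraries and 25.9, 25.5 and 38.8 in the 96-well libraries, or 41.6 ± 13.8 (SD, n = 3) and 30.1 ± 7.57 (SD, n = 3). ALI replicate 2 stood above the rest, and 96-well replicate 3 lay above the other 2 ALI libraries, so the groups overlapped. With a mean of 35.8 over the 6 libraries, against a median of 10.6 over all promoters, Fn1 lay above 95.3% of the promoters of the table.

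The collagen IV promoter came next. Col4a1 had window means of 18.2, 26.5 and 18.6 in ALI and 16.3, 16.7 and 24.6 in 96-well libraries, or 21.1 ± 4.68 and 19.2 ± 4.69 (SD, n = 3 each). The same pair of libraries was highest, and the groups overlapped. Its mean of 20.1 lay above 80% of the promoters of the table. It includes the signal at and upstream of the start, which lies inside Col4a2, so this level cannot be assigned to Col4a1 alone.

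The laminin promoter was nearer the middle of the table. Lama1 had window means of 11.6, 15.9 and 12.7 in ALI and 10.8, 11.8 and 16.5 in 96-well libraries, or 13.42 ± 2.25 and 13.01 ± 3.06 (SD, n = 3 each). The highest value was in the 96-well group and the groups covered nearly the same range. Its mean of 13.2 lay above 57% of the promoters.

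Cd44 had the least accessible promoter of the 4. Its window means were 4.13, 5.70 and 4.00 in ALI and 4.13, 5.08 and 6.71 in 96-well libraries, or 4.609 ± 0.946 and 5.309 ± 1.302 (SD, n = 3 each). The lowest and highest values came from different cultures, and the groups overlapped. Its mean of 4.96 lay above 31.9% of the promoters. Coverage over the Cd44 window was 28.3 to 65.4 reads per base, against 185.9 to 660.0 over Fn1, so the Cd44 values rest on the fewest reads.

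**Figure D1:**
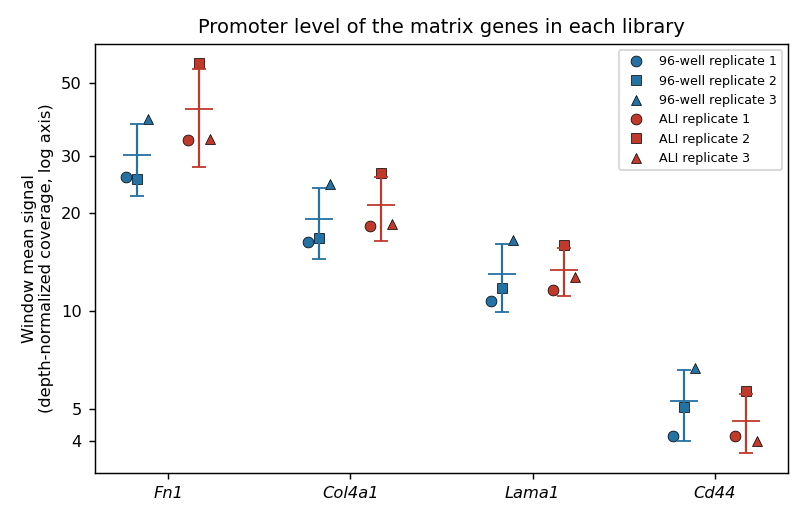
Mean signal over the 2000 bp window (log axis) of Fn1, Col4a1, Lama1 and Cd44 in each of the 3 ALI and 3 96-well libraries, with horizontal marks for the group means and bars of 1 SD. Fn1 sits highest and Cd44 lowest in every library, and the 2 groups overlap at each gene.

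The order Fn1, Col4a1, Lama1, Cd44 was the same in 6 of 6 libraries. Fn1 stood 1.75-fold above Col4a1, 2.68-fold above Lama1 and 7.28-fold above Cd44. Col4a1 stood 1.52-fold above Lama1 and 4.10-fold above Cd44, and Lama1 stood 2.69-fold above Cd44. Each of the 6 pairs gave p = 0.03125 in an exact two-sided sign-flip test over the libraries, the smallest p that 6 libraries allow, and 0.03125 after adjustment over the pairs. The order of Col4a1 and Lama1 held for the whole window only. In the central 400 bp their means were 36.1 and 37.3, a difference of −0.06 on the log2 scale, and this pair did not pass the exact sign-flip test (adjusted p = 0.1875).

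The profiles differed in shape and in the position of the highest bin. Fn1 had a tall, asymmetric peak with its highest bin at −50 bp in 5 of 6 libraries and at −10 bp in 96-well replicate 1. Its highest bin reached 104.3, 206.8 and 124.4 in ALI and 84.2, 92.4 and 127.2 in 96-well libraries. Lama1 had a narrow peak at −90 bp in all 6 libraries, 240 to 280 bp wide at 50% of its height. Col4a1 peaked at 30 bp downstream in all 6 libraries on a broad base, with a mean width of 500 bp at 50% of its height. A second summit at −350 bp reached 44.05% of the main peak, and others at 550 and 690 bp reached 36.8% and 36.5%. The summit at −350 bp lies inside Col4a2, so it cannot be assigned to one of the 2 genes. Cd44 had a low, flat top, with its highest bin anywhere from −70 to 110 bp and a height of 12.2 to 19.6. In the mean profile of Cd44, a second summit at −310 bp reached 43.9% of the highest bin, and one at 630 bp reached 31.6%.

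**Figure D2:**
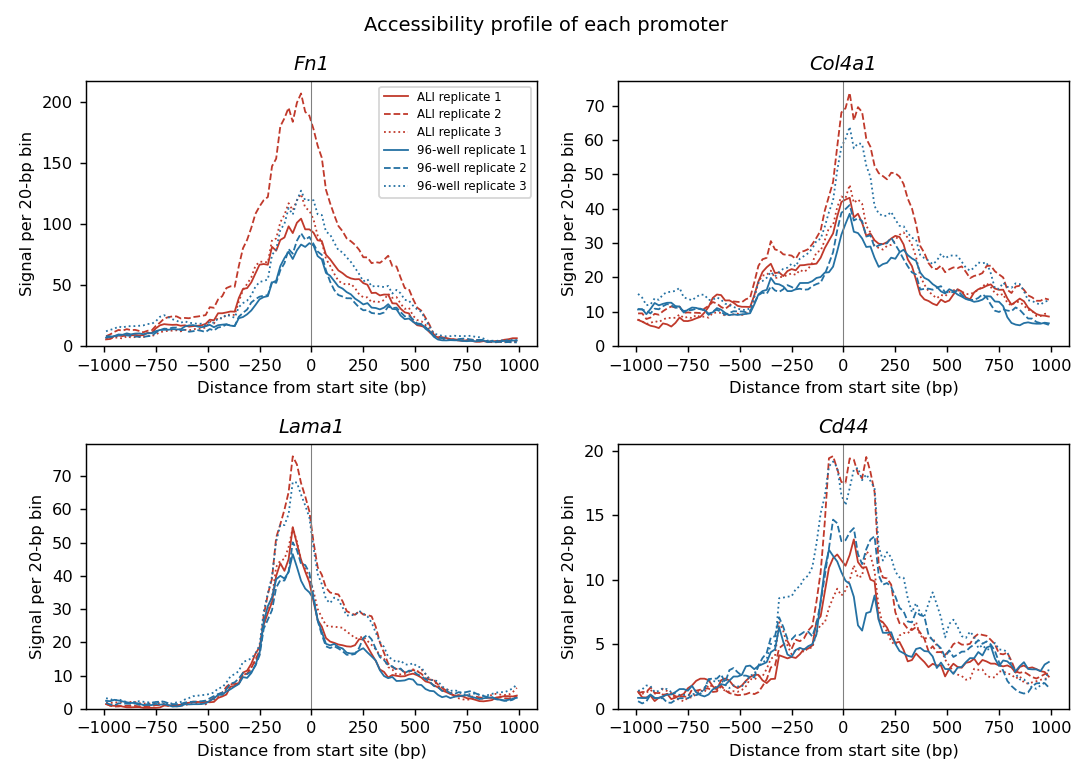
Signal in 20 bp bins against distance from the start site (bp) for Fn1, Col4a1, Lama1 and Cd44, with a line for each of the 6 libraries, blue for 96-well and red for ALI. Fn1 peaks just upstream of the start, Lama1 is narrow, Col4a1 keeps signal to both window edges, and Cd44 is low and flat-topped.

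The mean width at 50% of the peak height was 266.7 bp for Lama1, 353.3 bp for Cd44, 403.3 bp for Fn1 and 500 bp for Col4a1. The share of the window's signal in the central 400 bp placed Fn1 before Cd44. It was 56.2% for Lama1, 50.96% for Fn1, 44.7% for Cd44 and 35.6% for Col4a1, against a median of 38.2% over all promoters. Col4a1 kept signal throughout the window, and its lowest bin averaged 7.05, the fourth highest such value in the table. Across the 100 bins, the mean profile of Fn1 was most like that of Lama1 (Pearson r = 0.95), and that of Col4a1 most like that of Cd44 (r = 0.94), while Col4a1 and Lama1 were least alike (r = 0.77). These correlations are over bins of the same 6 libraries and are given as descriptions. Between libraries, the profile of a gene gave r from 0.963 to 0.998 for Fn1, 0.897 to 0.980 for Col4a1, 0.982 to 0.998 for Lama1 and 0.854 to 0.984 for Cd44. The flat profile of Cd44 was the least repeatable, and it is the one with the fewest reads.

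The promoters of the table with the most similar profile, as the mean over 6 libraries of bin signal relative to the window mean, were Dclre1b (r = 0.976), 5830448L01Rik (r = 0.973) and Fermt2 (r = 0.968) for Fn1. For Lama1 they were Prkch (r = 0.968), Fermt2 (r = 0.967) and Khdc4 (r = 0.966). For Col4a1 they were Mrps25 (r = 0.967), Capn5 (r = 0.957) and Itgb1bp1 (r = 0.956), and for Cd44 they were Notch2 (r = 0.964), Itgb1bp1 (r = 0.964) and Ankrd55 (r = 0.954). Each r is over 100 bins, and neighbouring bins share reads.

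On the deposited scale none of the 4 promoters passed the test between cultures. The change from 96-well to ALI culture, in log2 window signal, was 0.43 ± 0.33 (SE) for Fn1, 0.13 ± 0.33 for Col4a1, 0.05 ± 0.30 for Lama1 and −0.16 ± 0.19 for Cd44. The limma adjusted p-values over all promoters were 0.81, 0.90, 0.97 and 0.85. With one library left out, Fn1 ranged from 0.18, without ALI replicate 2, to 0.63, and Cd44 from −0.30 to −0.0076, the latter without 96-well replicate 3. The same fit called 0 promoters (0.0%), with 7 at an unadjusted p under 0.05 and a lowest adjusted p of 0.40, and the groups did not overlap at 14 promoters (5.96%), none of them among the 4. The median change of the 4 genes was 0.09, against 0.14 over all promoters. For each of the 4 genes the difference between the group means was smaller than the larger of the 2 SDs.

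On the centred scale Cd44 fell in ALI relative to the other promoters of the table. Its change was −0.33 ± 0.12 (SE), with a limma adjusted p of 0.027, and its 3 ALI libraries lay below all 3 96-well libraries. Fn1 had a change of 0.27 ± 0.10 and did not pass at an adjusted p of 0.051, although its groups did not overlap. It passed without ALI replicate 2 (limma adjusted p = 0.034), ALI replicate 3 (0.043) or 96-well replicate 3 (0.022). Col4a1 (−0.03 ± 0.09, adjusted p = 0.85) and Lama1 (−0.12 ± 0.09, adjusted p = 0.38) overlapped between cultures. Of all promoters, 51 passed on this scale (21.7%), with 27 up (11.5%) and 24 down (10.2%), and groups did not overlap at 92 (39.1%). The count fell to 22 without 96-well replicate 1, to 25 without 96-well replicate 2 and to 0 without the mean-variance trend of limma. The Cd44 call was also lost without that trend, where the adjusted p was 0.070, and when ALI replicate 2, ALI replicate 3, 96-well replicate 2 or 96-well replicate 3 was left out, with adjusted p up to 0.17.

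**Figure D3:**
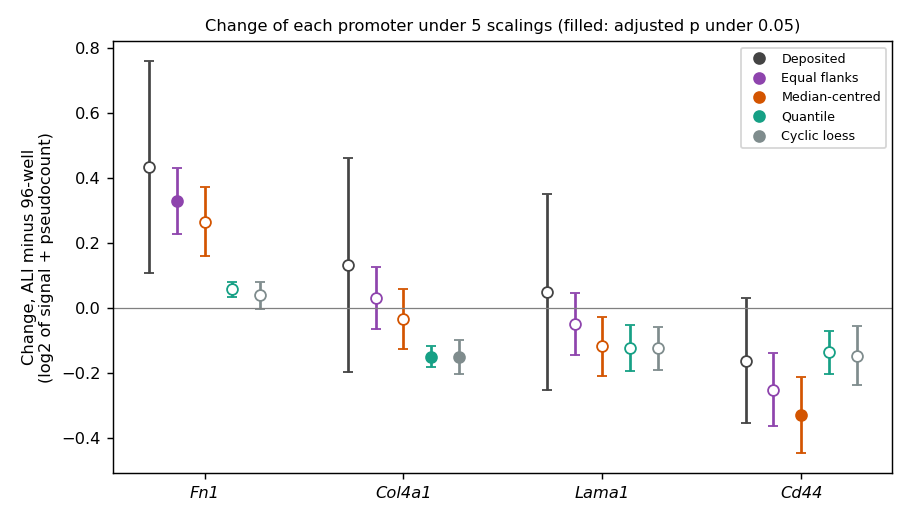
Change in log2 of signal plus pseudocount from 96-well to ALI culture for the 4 genes under 5 scalings of the same 6 libraries, with bars of 1 SE of the fit and filled points where the adjusted p is under 0.05. Fn1 lies above 0 and Cd44 below 0 under all 5 scalings, Lama1 is above 0 on the deposited scale only, and Col4a1 is above 0 on the deposited and equal-flank scales only.

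The calls moved with the scaling. When each library was scaled to equal signal in the outer flanks of all promoters, Fn1 was higher in ALI (0.33 ± 0.10, limma adjusted p = 0.0093), as were 24.7% of promoters, and Cd44 was not called (−0.25, limma adjusted p = 0.075). After quantile normalisation Col4a1 was lower (−0.15 ± 0.03, limma adjusted p = 0.038), as were 8.09% of promoters, and after cyclic loess it was again lower (−0.15 ± 0.05, limma adjusted p = 0.034), as were 12.8%. Fn1 and Cd44 were not called under either, with changes of 0.06 and −0.14 after quantile normalisation and 0.04 and −0.15 after loess. Across all promoters, the change rose with the log2 level on the deposited and centred scales (r = 0.59) and with equal flanks (r = 0.53). It did not rise with level after quantile normalisation (r = 0.01) or loess (r = 0.02). When the promoters were ordered by signal and cut into 4 bands, Fn1 fell in the highest band and Cd44 in the next to lowest. With equal flanks, 33 of the 59 promoters in the band of Fn1 were called higher in ALI. The median centred change was 0.18 in the band of Fn1 and −0.12 in the band of Cd44. The 20 promoters nearest in level to Fn1 had a median centred change of 0.23, and 15 of them lay below Fn1. The 20 nearest to Cd44 had a median of −0.19, and 5 of them lay below Cd44. For Col4a1 the median of the 20 nearest was 0.14, and 2 of them lay below Col4a1. For Lama1 it was −0.10, and 10 of them lay below Lama1. The part that this trend plays in the changes of the 4 genes was not tested.

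Ratios between 2 genes within a library do not depend on how that library was scaled as a whole, except through the pseudocount. They do not remove a change that rises with the level of a promoter, as across this table (r = 0.59 on the deposited scale). The log2 ratio of Fn1 to Cd44 was 2.74, 3.11 and 2.78 in ALI and 2.37, 2.11 and 2.36 in 96-well libraries. Each ALI library lay above each 96-well library, and the means differed by 0.59. The ratio of Fn1 to Lama1 was higher by 0.38 in ALI, that of Fn1 to Col4a1 by 0.30, that of Col4a1 to Cd44 by 0.29 and that of Lama1 to Cd44 by 0.21, in each case with no overlap. Each of these 5 gave p = 0.1 in an exact two-sided permutation test, the smallest that 3 against 3 allows, and 0.12 adjusted over the 6 pairs. Col4a1 to Lama1 differed by 0.08 and overlapped. With a pseudocount of 1 times the median promoter, the differences to Cd44 shrank to 0.15 for Col4a1 (adjusted exact permutation p = 0.36) and 0.092 for Lama1 (0.3). Without ALI replicate 2 the difference of Fn1 to Lama1 was 0.25. In all 5 separated pairs the ratio of the gene of higher level to the other was higher in ALI. After quantile normalisation the changes of Col4a1, Lama1 and Cd44 lay close together, at −0.15, −0.12 and −0.14, with 0.06 for Fn1. After cyclic loess they were −0.15, −0.12 and −0.15, with 0.04 for Fn1. The part that the trend with level plays in these ratios was not tested. Of all 27495 pairs of promoters, 33.7% did not overlap between cultures, so non-overlap of a pair was common in this table.

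Some measures of how the Fn1 signal was spread over the window separated the cultures and others did not. No test of a single shape measure could pass with 3 libraries a group. The width at 50% of the peak height and the share in the central 400 bp overlapped (exact permutation p = 0.6 for each). The downstream edge of the peak overlapped too. The share from −600 to −200 bp was 20.9% in ALI and 16.9% in 96-well libraries, the share from −1000 to −600 bp was 6.03% and 8.71%, and the share from 600 to 1000 bp was 2.43% and 3.503%. Each was separated between the groups (exact permutation p = 0.1), as at 20.9%, 24.7% and 36.2% of promoters in the same order. The upstream edge of the peak, taken at 50% of its height, lay at −280 bp in all 3 ALI libraries and at −200 bp in all 3 96-well libraries. The exact permutation p was 0.1 (0.4 adjusted over the 4 genes), and 2.13% of promoters had an edge further upstream in every ALI library, with 8.51% separated in either direction. From −600 to −200 bp the Fn1 signal was 35.5, 60.1 and 34.7 in ALI and 22.7, 22.4 and 30.2 in 96-well libraries, or 43.4 ± 14.4 and 25.1 ± 4.40 (SD, n = 3 each). Every ALI library lay above every 96-well library, which was not so for the whole window.

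The 400 bp regions were not part of the planned analysis and were fitted after the profiles had been seen, as 5 regions of every promoter. On the deposited scale the Fn1 region gave a change of 0.73 ± 0.34 (SE) and a limma adjusted p of 0.62, and 3 of 1175 regions were called (0.255%). The groups did not overlap in 4 of the 20 regions of the 4 genes, against 11.6% of all regions. On the centred scale the change was 0.56 ± 0.12 with a limma adjusted p of 0.00043, with 12.9% of regions called (5.53% higher and 7.4% lower), and it stayed under the threshold when each library was left out (adjusted p 0.00044 to 0.014). Loess (0.43, limma adjusted p = 0.00019, 10.6% of regions called) and quantile normalisation (0.40, limma adjusted p = 0.0016, 9.96% called) gave the same call. Without the mean-variance trend the limma adjusted p was 0.11, and 0.426% of regions were called.

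The far upstream end of the Col4a1 window moved the other way. From −1000 to −600 bp the signal was 8.04, 10.3 and 8.13 in ALI and 11.1, 10.7 and 14.4 in 96-well libraries, or 8.82 ± 1.27 and 12.04 ± 2.01 (SD, n = 3 each). Each ALI library was below each 96-well library, although ALI replicate 2 has the highest signal overall. This region lies within Col4a2. The change was −0.40 ± 0.29 on the deposited scale (limma adjusted p = 0.70) and −0.57 ± 0.14 on the centred scale (limma adjusted p = 0.0016), and the centred call held when each library was left out (adjusted p up to 0.023). It was −0.44 after loess (limma adjusted p = 0.0088) and −0.42 after quantile normalisation (limma adjusted p = 0.021), and was lost without the trend (limma adjusted p = 0.11).

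The region upstream of the Cd44 peak was also lower in ALI on the centred scale, but that call depended on single libraries. From −600 to −200 bp the signal was 2.75, 2.67 and 3.10 in ALI and 3.59, 4.11 and 4.62 in 96-well libraries, or 2.84 ± 0.23 and 4.11 ± 0.52 (SD, n = 3 each). All 3 ALI libraries were below all 3 96-well libraries. The change was −0.40 ± 0.21 on the deposited scale (limma adjusted p = 0.62) and −0.57 ± 0.21 on the centred scale (limma adjusted p = 0.047). The centred call was lost when any library other than ALI replicate 1 was left out, after loess (adjusted p = 0.17) and after quantile normalisation (adjusted p = 0.25). Lama1 from −1000 to −600 bp read 0.757, 0.974 and 1.56 in ALI and 1.57, 1.57 and 2.20 in 96-well libraries, with the groups all but touching. Its centred change of −0.57 did not pass (limma adjusted p = 0.16). Coverage there was low, at 4.82 to 22.25 reads per base in the outer 200 bp.

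**Figure D4:**
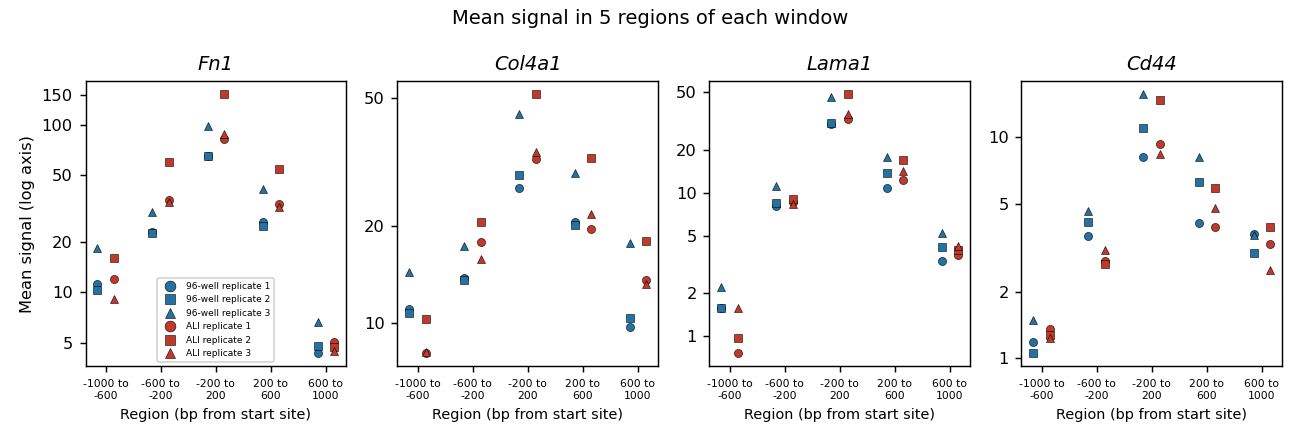
Mean signal (log axis) in 5 regions of 400 bp of the windows of Fn1, Col4a1, Lama1 and Cd44, with a point for each library, blue for 96-well and red for ALI. Fn1 from −600 to −200 bp is higher in all 3 ALI libraries, and Col4a1 from −1000 to −600 bp and Cd44 from −600 to −200 bp are lower in all 3.

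The contrast between the core and the flanks of a promoter was measured as the mean signal of the central 400 bp over that of the outer 200 bp on each side. For Fn1 it was 12.8, 19.3 and 16.6 in ALI and 9.81, 10.9 and 9.59 in 96-well libraries, or 16.2 ± 3.28 and 10.1 ± 0.73 (SD, n = 3 each). For Col4a1 it was 3.75, 4.15 and 3.74 in ALI and 2.90, 2.97 and 3.06 in 96-well libraries, or 3.88 ± 0.24 and 2.98 ± 0.08 (SD, n = 3 each). Both genes had every ALI library above every 96-well library, with an exact permutation p of 0.1 and an adjusted p of 0.2 over the 4 genes. Over all promoters 27.4% were higher in ALI without overlap and 32.1% were separated in either direction, so a count of 2 among 4 genes cannot be set apart from that share. The ratios of Lama1 (16.8, 23.3 and 11.6 against 12.03, 13.4 and 12.4) and Cd44 (4.71, 7.38 and 4.76 against 3.86, 9.52 and 8.37) overlapped. Their exact permutation p was 0.4 for each gene.

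In Col4a1 the upstream flank separated the cultures and the downstream flank did not. The signal of the outer 200 bp upstream was 6.35, 9.77 and 7.48 in ALI and 11.5, 10.98 and 14.3 in 96-well libraries, and did not overlap, as at 10.6% of all promoters. The downstream flank was 10.9, 15.0 and 10.7 in ALI and 6.58, 8.38 and 14.7 in 96-well libraries, and overlapped. The ratio of downstream to upstream flank was 1.56 ± 0.15 in ALI and 0.785 ± 0.23 in 96-well libraries (SD, n = 3 each), without overlap. The exact permutation p was 0.1 (0.2 adjusted over the 4 genes). Lama1 was also separated, at 4.52, 3.83 and 2.237 in ALI and 1.48, 2.236 and 2.11 in 96-well libraries, with groups that all but touched. Its exact permutation p was 0.1 (0.2 adjusted over the 4 genes). The upstream flank of Lama1 had only 4.82, 9.96 and 19.3 reads per base in ALI and 14.5, 12.1 and 22.25 in 96-well libraries. Of all promoters 19.6% were separated in one direction or the other. Col4a1 ranked 51, 56 and 52 among the promoters in ALI and 44, 42 and 39 in 96-well libraries, a shift to lower rank without overlap, as in 35.7% of promoters.

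**Figure D5:**
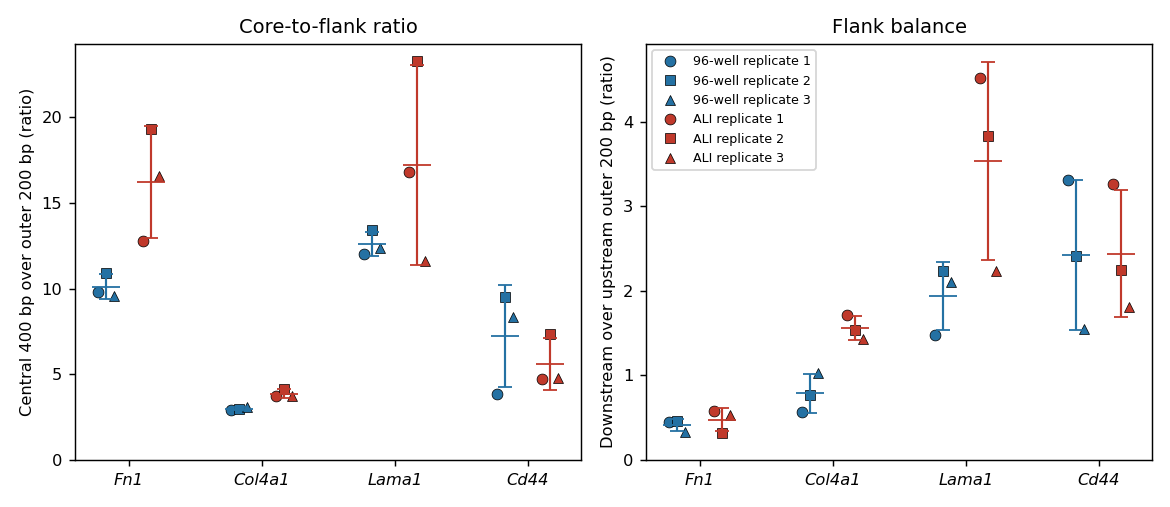
Ratio of central 400 bp to outer 200 bp signal (left) and of downstream to upstream outer 200 bp signal (right) for the 4 genes, with a point for each library, horizontal marks for the group means and bars of 1 SD. On the left the 3 ALI values of Fn1 and Col4a1 lie above their 3 96-well values and those of Lama1 and Cd44 mix, and on the right the ALI values of Col4a1 lie above its 96-well values, as do those of Lama1 by a margin too small to see.

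Bin by bin, after dividing by the window mean of the library, the groups did not overlap in 48 of the 100 Fn1 bins, 35 Col4a1 bins, 13 Lama1 bins and 5 Cd44 bins, against a median of 18 per promoter and 22.5% of all bins. In Fn1, 15 of the separated bins were higher in ALI and 33 were lower, and 14 consecutive bins from −420 to −140 bp were among the higher ones. In Col4a1, 8 were higher and 27 lower, and 17 consecutive bins from −1000 to −660 bp were among the lower ones. The bins of one promoter share fragments and are not independent.

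Of the other genes on the lists of matrix components, receptors, remodelling enzymes and adhesion molecules, the table held 3 of 74 matrix genes (Fn1, Col4a1 and Lama1), 1 of 36 receptors (Cd44), 2 of 43 remodelling genes (Mmp3 and St14) and 1 of 21 adhesion genes (Cdh1). On the deposited scale 0 of these 7 was called. On the centred scale 2 of the 7 fell, against 10.2% of all promoters, and 0 rose. They were Cd44 and St14, which encodes the membrane serine protease matriptase. Both lie in the next to lowest band by signal, in which 18 of 59 promoters fell. St14 had a centred change of −0.34 ± 0.11 (SE) and a limma adjusted p of 0.015, which became 0.066 without the trend, 0.128 without ALI replicate 2, 0.083 without 96-well replicate 1 and 0.067 without 96-well replicate 2. Cdh1, which encodes E-cadherin of epithelial junctions, had a value of −0.25 ± 0.11 (limma adjusted p = 0.080), and Mmp3, a matrix metalloproteinase above only 2.98% of promoters by signal, had −0.16 ± 0.31 (limma adjusted p = 0.75). The median centred change was −0.16 over the 7 genes and −0.08 over the 4, against −0.03 over all promoters.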

How the data were processed

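Bulk ATAC-seq libraries of limb explants (3 ALI, 3 96-well) were represented by 1 deposited table of coverage signal in 20 bp bins around 235 promoters. The submitters' processing notes name build GRCm39 and the tools deepTools 3.5.1, Bowtie2 2.5.1, Picard, SAMtools 1.16.1 and Trim Galore 0.6.10, without their roles. Signal was averaged per bin and scaled for sequencing depth, per the file headers. The normalization formula, any shift of reads for the Tn5 cut, and how the 235 promoters were chosen are not given in the sources used here. The signal is not a count, so no count test was run. Because the deposited signal is coverage, the depth given is reads per base, estimated from the steps between low values, all of which (84 to 126 values per library) were whole multiples of 1 read within 0.1 of a step.

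Window means were log2-transformed with a pseudocount of 1.06 (0.1 of the median promoter), so that fold changes of low promoters are understated. They were fitted with limma 3.58.1 (R 4.3.3, empirical Bayes with a mean-variance trend) over all 235 promoters, with Benjamini-Hochberg adjustment and a threshold of 0.05. In the main fits on both scales the prior degrees of freedom, the weight given to that trend, were infinite. Each SE and p-value there took its variance from the trend and not from the promoter's own spread. Single values were compared by exact two-sided permutation tests, which with 3 against 3 cannot go below 0.1. The script was tested on simulated data. Named genes were the 4 members, the listed matrix genes that the table holds, and for each member the 3 promoters most like it in profile. The members and lists were chosen with earlier results of these data known. The 400 bp regions, and the scalings and settings applied to them, were added after seeing the data. Alternatives were 2 other pseudocounts, a filter that drops the 58 promoters of lowest signal, other scalings, the central 400 bp, no trend, a replicate block and leaving out each library.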

Additional observations from a re-analysis of the deposited data

How the results depend on the processing

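On the deposited scale 0 promoters were called in every fit that left out one library (0 to 0), while quantile normalisation gave 38 calls, equal flanks 73 and cyclic loess 61. On the centred scale the 51 calls became 29 with a pseudocount of 1 times the median, 90 without the 58 promoters of lowest signal, 0 without the mean-variance trend and 22 to 58 with one library left out (22 and 25 without 96-well replicates 1 and 2). In the centred fit the prior degrees of freedom were infinite with the mean-variance trend and 5.37 without it. The cause of these shifts was not tested. Fn1 passed on the deposited scale only with equal flanks (0.33), and on the centred scale with a pseudocount of 0.01 of the median (0.26), without those promoters (0.21), in the central 400 bp (0.22) and without ALI replicate 2, ALI replicate 3 or 96-well replicate 3 (range over the 6 libraries 0.18 to 0.34). The deposited change of Col4a1 turned negative with quantile normalisation (−0.15), loess (−0.15) and without ALI replicate 2 (range −0.033 to 0.32), and its centred change ranged from −0.062 to 0.023, above 0 only without 96-well replicate 3. The deposited change of Lama1 turned negative with quantile normalisation (−0.12), equal flanks (−0.049), loess (−0.12) and without ALI replicate 2, 96-well replicate 1 or 96-well replicate 2 (range −0.070 to 0.22), and its centred change passed without those promoters (−0.17). The centred change of Cd44 did not pass with a pseudocount of 1 times the median (−0.16), in the central 400 bp (−0.34) or without the trend (−0.33), and ranged from −0.39 to −0.29 with one library left out. The core-to-flank difference of Col4a1 reversed against the downstream flank alone (−0.29). With one library left out, log2 level ratios were 0.70 to 0.80 for Fn1 to Col4a1, 1.24 to 1.39 for Fn1 to Lama1, 2.47 to 2.67 for Fn1 to Cd44, 0.54 to 0.58 for Col4a1 to Lama1 (−0.058 in the central 400 bp), 1.77 to 1.87 for Col4a1 to Cd44 and 1.21 to 1.29 for Lama1 to Cd44, each at p = 0.0625, the smallest that the exact sign-flip test allows for 5 libraries. 

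The labels do not say whether libraries with the same replicate number were handled together. Their deviations from the group means correlated at 0.67, −0.61 and −0.60, and those of libraries with different numbers at −0.72 to 0.81. The highest value was between 96-well replicate 3 and ALI replicate 2, the libraries of highest signal. With 3 libraries a group, these correlations cannot decide whether a replicate number marks a shared batch. With the replicate number as a block, 0 promoters were called on the deposited scale and 39 on the centred scale, where the limma adjusted p was 0.042 for Cd44 and 0.19 for Fn1. Mean coverage over a window was 28.3 to 660.0 reads per base for the 4 genes, and parts of a window had less. With 3 libraries a group, only differences well above the spread between libraries could pass.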
